A study of Mus musculus with 8 samples.

Results

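The Sprouty, SPRED, DUSP and PEA3-family ETV genes that restrain or report ERK signalling were followed in 4 arrays of NS5 cells and 4 arrays of the astrocytes made from that line. NS5 cells are mouse neural stem cells that growth factors keep dividing in culture. The astrocytes were the same line after 3 days without those growth factors and with 5% fetal calf serum. All 8 arrays therefore come from 1 cell line, and the astrocytes differ from the stem cells both in what was withdrawn and in the serum that was added. The question was how these transcripts differ between a growth factor-fed stem cell culture and the astrocytes made from it. The members were the 10 genes Spry1, Spry2, Spry4, Spred1, Spred2, Dusp4, Dusp6, Etv1, Etv4 and Etv5, found as all probes that the platform annotation gives to these symbols. This gave 14 probes for 9 genes, out of 24613 probes for 16449 gene symbols. No probe was listed for Spry1, which is not analysed here.

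Growth factor receptors pass their signal through RAS to the kinases RAF, MEK and ERK. Active ERK induces its own inhibitors, and the level of these inhibitor transcripts is widely read as a record of recent ERK activity. Sprouty and SPRED proteins act upstream, on RAS and RAF, while DUSP4 and DUSP6 are phosphatases that remove the activating phosphates from ERK itself. ETV1, ETV4 and ETV5 are closely related ETS transcription factors, called the PEA3 family, that are switched on by fibroblast growth factor signalling in many developing tissues.

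The values below are signals, meaning background-subtracted intensities in scanner units after quantile normalization between arrays. The median intensity of an array lay between 28.0 and 33.0 and its background limit, estimated from the negative intensities, between 35.4 and 39.8. Each fold change is the astrocyte mean less the NS5 mean of log2(signal + 99.01). For dim probes the added constant makes it smaller than the true change. They were tested with limma over the 12306 probes whose mean log2 value was above the median of all probes, a level that corresponds to a signal of 30.7, and a probe was called at an adjusted p under 0.05. The precision is limited by the 4 arrays of each group. Slides and scan dates are not recorded in the labels or tables, so batches of that kind were not analysed. Of 8 astrocyte markers tested, 7 rose, among them Gfap, whose 4 astrocyte signals ran from 1670 to 3722 while no NS5 array was above background. Slc1a2 stayed below the background limit on each of the 8 arrays. Astrocyte array 1 had the lowest weight of the 8 arrays, 0.488, when limma weighted arrays by how closely they fitted.

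The ERK feedback genes were lower in the astrocytes. Of the 9 genes with a probe, Spry2 did not pass the filter on dim probes, and the other 8 were each called lower by their brightest probe, where 30.4% of the 9210 genes tested were called lower. The fall was at least 4-fold for 6 of them, Spry4, Dusp4, Dusp6, Etv1, Etv4 and Etv5, against 2.23% of all genes, and smaller for Spred1 and Spred2. Counted by probe, 12 passed the filter and 11 were called lower, against 30.6% of all probes. None was called higher, against 28.2%, and 8.42% of all probes were at least 2-fold lower. For those 11 probes the 4 NS5 signals all lay above the 4 astrocyte signals, as they did for 28.5% of all probes. The median log2 fold change of the 8 genes was -2.88, against -0.02 over all genes tested. A gene near background in one group can pass the filter through the other group alone, so these counts describe the members and are no test of the list. In RNA from whole cultures, fewer cells carrying a transcript and less of it per cell cannot be told apart.

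**Figure D1:**
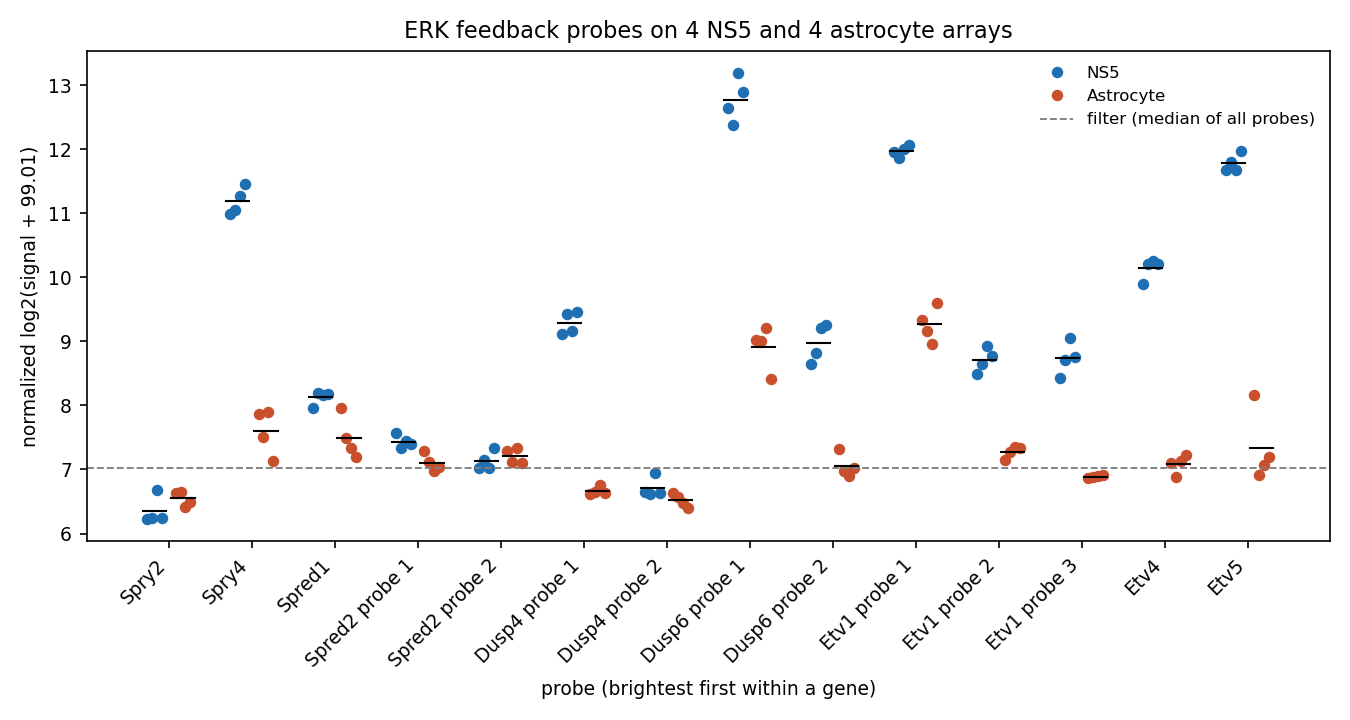
Normalized log2(signal + 99.01) of the 14 member probes, 1 point per array with NS5 in blue and astrocytes in red, the short black bars being group means and the dashed line the filter level. For Spry4, Dusp6, Etv4 and Etv5 the NS5 points stand far above the astrocyte points, while the Spry2 probe lies under the filter in both groups.

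Among the inhibitors that act upstream of ERK, Spry4, a Sprouty protein, fell furthest. Its signals were 1941, 2020, 2369 and 2701 on the NS5 arrays and 135, 82.0, 139 and 41.2 on the astrocyte arrays. The groups were far apart, and astrocyte array 4 was the lowest of all 8. The mean went from 2257 ± 349 (SD, n = 4) to 99.4 ± 46.8, which is 4.40% of the NS5 level. Spry4 had a log2 fold change of -3.59 ± 0.16 (SE, limma adjusted p = 8.41e-10).

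Spry2, another Sprouty protein, gave no usable signal with its single probe (ILMN_2749464), at -24.0, -23.1, 3.87 and -23.0 in NS5 cells and -0.216, 1.74, -13.4 and -8.90 in astrocytes. These values lie below the background limit throughout and say nothing about the gene's level in either cell type.

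The SPRED genes, whose products act with neurofibromin to switch RAS off, moved less. Spred1 signals were 150, 193, 187 and 192 in NS5 cells and 149, 81.8, 62.3 and 48.3 in astrocytes. The groups did not overlap, but astrocyte array 1 stood next to the lowest NS5 array. Spred1 had a log2 fold change of -0.63 ± 0.14 (SE, limma adjusted p = 0.00146), of -0.78 without astrocyte array 1, and of -1.21 in the authors' value table. The brighter Spred2 probe (ILMN_2590010) gave 90.1, 62.6, 74.8 and 69.5 in NS5 cells and 57.2, 39.1, 26.8 and 31.8 in astrocytes, above background on 2 of the 4 astrocyte arrays. It was called lower, at -0.33 ± 0.09 (limma adjusted p = 0.0049), and at -0.99 in the authors' value table. The other Spred2 probe (ILMN_2598998) gave 31.1 to 61.7 in NS5 cells and 38.5 to 62.1 in astrocytes. It was not called (0.08 ± 0.09, limma adjusted p = 0.487, 95% interval -0.12 to 0.28), so the probes of Spred2 disagreed and its fall rests on 1 dim probe.

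Dusp6 encodes the cytoplasmic ERK phosphatase and was measured by a bright and a dim probe. The bright one (ILMN_1248537) gave 6312, 5213, 9238 and 7490 in NS5 cells and 423, 414, 495 and 241 in astrocytes. Even the lowest NS5 array was far above the highest astrocyte array. The mean fell from 7063 ± 1722 (SD, n = 4) to 393 ± 107, or 5.57% of the NS5 level, a log2 fold change of -3.86 ± 0.18 (SE, limma adjusted p = 1.52e-09). The dimmer Dusp6 probe (ILMN_2701321) gave 303, 354, 492 and 509 in NS5 cells and 60.9, 27.5, 20.1 and 30.6 in astrocytes, where astrocyte array 1 alone was above background. Its log2 fold change was -1.93 ± 0.14 (limma adjusted p = 7.04e-08). The same probe had -3.67 in the authors' value table, which has a floor of 10 and no offset, where the bright probe had -4.18.

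Dusp4 encodes an inducible nuclear phosphatase of the same class and dropped below background. Its brighter probe (ILMN_2689731) gave 457, 587, 473 and 605 in NS5 cells and -0.781, 1.82, 9.20 and 0.409 in astrocytes. Dusp4 was at least 4.63-fold lower in astrocytes (limma adjusted p = 8.98e-11). This is a bound, since no astrocyte array was above background, and it sets the mean of the NS5 values against the lowest signals above the limit on the astrocyte arrays. The other Dusp4 probe (ILMN_2608995) was not above background on any array, with signals of -0.358 to 24.2 in NS5 cells and -14.9 to -0.00127 in astrocytes.

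Etv5 was well above background in NS5 cells and near the background limit on 3 of the 4 astrocyte arrays. Its signals were 3168, 3450, 3182 and 3923 in NS5 cells and 188, 21.2, 35.0 and 48.1 in astrocytes. Astrocyte array 1 was several times higher than the other astrocyte arrays, and 2 of the 4 astrocyte arrays were above background. The log2 fold change of Etv5 was -4.45 ± 0.21 (SE, limma adjusted p = 1.69e-09), the 21st lowest of the 12306 probes tested, and -4.71 without astrocyte array 1.

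Etv4 gave 856, 1080, 1122 and 1084 in NS5 cells and 37.9, 19.4, 41.4 and 50.7 in astrocytes, where 3 of the 4 arrays were above background. NS5 array 1 was the lowest of its group, yet far above each astrocyte array. Etv4 had a log2 fold change of -3.05 ± 0.10 (SE, limma adjusted p = 4.94e-11).

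Etv1 was measured by 3 probes. Its brightest probe (ILMN_2631953) gave 3894, 3631, 4002 and 4194 in NS5 cells and 546, 476, 401 and 680 in astrocytes, above background on all 8 arrays. The astrocyte mean of 526 ± 119 (SD, n = 4) was 13.4% of the NS5 mean of 3930 ± 235. The log2 fold change was -2.71 ± 0.12 (SE, limma adjusted p = 6.98e-10). A further Etv1 probe (ILMN_2643915) gave 262, 303, 389 and 338 in NS5 cells and 42.9, 56.2, 64.3 and 63.3 in astrocytes, 17.5% of the NS5 mean. The third (ILMN_1235649) gave 247 to 434 in NS5 cells and 17.4 to 21.8 in astrocytes, below the background limit throughout the astrocytes, and was at least 3.16-fold lower. All 3 Etv1 probes were called lower.

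**Figure D2:**
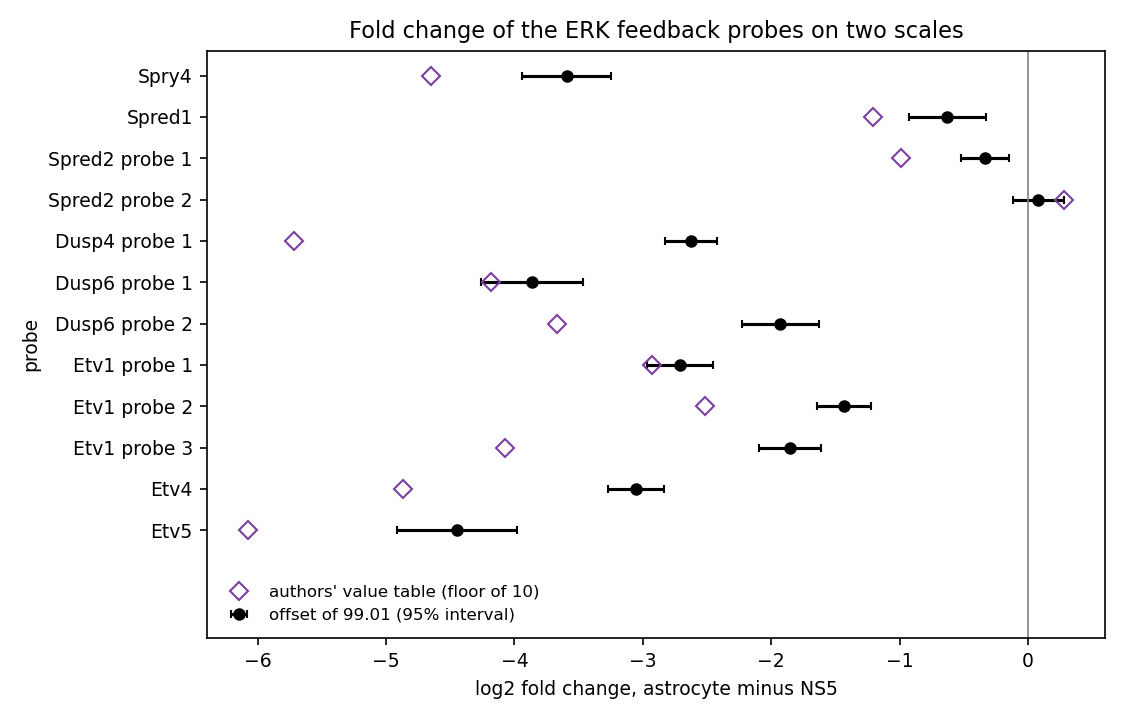
Log2 fold change (astrocyte minus NS5) of the 12 member probes that passed the filter, as black points with 95% intervals on the log2(signal + 99.01) scale and as open diamonds in the authors' value table. The diamonds lie further from 0 for dim probes such as Dusp4 (-5.72 against -2.62) and close to the points for bright ones such as the main Dusp6 probe (-4.18 against -3.86).

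The log2 fold changes of the members with large falls depended on the scale, and Dusp4 has no place in their order because its fall is only a bound. With the offset, the values were -4.45 for Etv5, -3.86 for Dusp6, -3.59 for Spry4, -3.05 for Etv4 and -2.71 for Etv1. In the authors' value table they were -6.07 for Etv5, -4.87 for Etv4, -4.65 for Spry4, -4.18 for Dusp6 and -2.93 for Etv1. The 95% intervals of Dusp6 (-4.26 to -3.46) and Spry4 (-3.94 to -3.24) overlapped, and these neighbours traded places with Etv4 between the scales. Signals of different probes cannot be compared as levels, since each probe binds its target differently.

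Promoter windows of the members were read for motifs of the pathway. Windows of 250 bases before a listed start (RefSeq, GRCm38.p6) were searched for 7 of the 10 genes, 9 windows in all. Spry4, Dusp4 and Etv4 had no window among those searched. Member windows on a chromosome left out of the search are not covered, so a missing window does not show that RefSeq lists no start. Both strands were searched for the ETS motif CCGGAA, the AP-1 site TGANTCA, the cyclic AMP site TGACGTCA and the GC box GGGCGG. Shorter ETS sequences such as GGAA were not searched. Also searched were the octamers TGAATGAA and TGAATGGA. The octamers are those known to bind Capicua, a repressor that ERK signalling removes from PEA3-family genes. The motif CCGGAA was in 0 of the 9 windows and in 12.0% of 32851 windows of all genes. The octamers were in 0 of the 9 windows and in 1.08% and 1.01% of all. The hexamer TGAATG, which both octamers share and which was searched after the octamers had given no match, was in 2 of the 9 windows and in 10.9% of all. The Dusp6 window holds it once and the window before the second Etv5 start 3 times, a count reached by 0.131% of all windows. That Etv5 window was picked for its high count, so this percentage is not a chance rate. These windows, with motif matches in capitals (TGAATG, or CATTCA on the other strand), are shown because, of the 9 searched, they hold the hexamer.
Dusp6, chr10:99262981-99263230, + strand: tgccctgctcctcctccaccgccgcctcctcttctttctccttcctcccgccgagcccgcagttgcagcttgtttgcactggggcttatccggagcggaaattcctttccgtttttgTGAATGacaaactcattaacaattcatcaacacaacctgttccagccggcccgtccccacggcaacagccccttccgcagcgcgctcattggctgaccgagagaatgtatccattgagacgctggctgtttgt
Etv5, second start, chr16:22438369-22438618, - strand: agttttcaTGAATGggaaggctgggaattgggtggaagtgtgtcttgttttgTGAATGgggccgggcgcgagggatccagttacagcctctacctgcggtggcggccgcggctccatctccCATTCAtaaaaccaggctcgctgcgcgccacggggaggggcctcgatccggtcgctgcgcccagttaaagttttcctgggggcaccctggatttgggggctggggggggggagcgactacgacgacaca
The window before the first Etv5 start held the GC box 3 times and none of the other motifs; the GC box was in 4 of the 9 windows and in 32.7% of all, and the AP-1 and cyclic AMP sites were in 0 of the 9 and in 6.75% and 1.55% of all. A match is a description of the letters and not a binding site, and the factor's binding was not measured.

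Relatives of the members moved in both directions. Of 20 relatives, 14 were tested, and 3 were called lower and 6 higher, and their median was 0.17 (log2). Of all genes, 30.4% were lower and 30.1% higher. When arrays were scaled by their medians instead, the split was 3 lower and 3 higher. Il17rd, also called Sef, a membrane inhibitor of FGF signalling, was among those called lower. Its signals were 292, 278, 381 and 383 in NS5 cells and 166, 101, 105 and 110 in astrocytes, a log2 fold change of -0.98 ± 0.11 (SE, limma adjusted p = 7.17e-06), and -0.47 by its dimmer probe. Dusp19 had -0.52 ± 0.13, and Dusp2, an inducible nuclear phosphatase not above background in astrocytes, was at least 1.29-fold lower. Dusp8, Dusp18 and Dusp14 were called higher, at 0.70 ± 0.16, 0.66 ± 0.11 and 0.62 ± 0.09. Dusp8, a phosphatase that prefers the stress kinases JNK and p38 to ERK, exceeded the background limit on a single NS5 array and gave 206, 92.9, 82.1 and 69.5 in astrocytes. Outside the PEA3 family, Etv3 and Etv6 were not called (0.18 ± 0.09, limma adjusted p = 0.103, and -0.11 ± 0.09, limma adjusted p = 0.34). Spred3 was not called either, at -0.09 ± 0.07 (limma adjusted p = 0.288).

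Transcripts of the ERK cascade itself were called in both directions. Of 40 cascade genes, 33 were tested, with 7 lower, 14 higher and a median log2 fold change of 0.14, or 7 lower and 9 higher when scaled by medians. The shares over all genes were 30.4% lower and 30.1% higher. Map2k2, which encodes the kinase MEK2, had a log2 fold change of -0.41 ± 0.09 (SE, limma adjusted p = 0.00128). The largest rises were of greater size. Pea15a encodes a protein abundant in astrocytes that holds ERK in the cytoplasm. Its signals were 4013, 3799, 4227 and 3457 in NS5 cells and 43139, 43139, 39017 and 43139 in astrocytes, a log2 fold change of 3.41 ± 0.08 (limma adjusted p = 3.34e-12). The equal values come from equal ranks in the quantile normalization. Gab1, an adaptor of receptor tyrosine kinases, had 1.72 ± 0.11, and Rps6ka5, a nuclear kinase downstream of ERK and p38, had 1.10 ± 0.10.

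**Figure D3:**
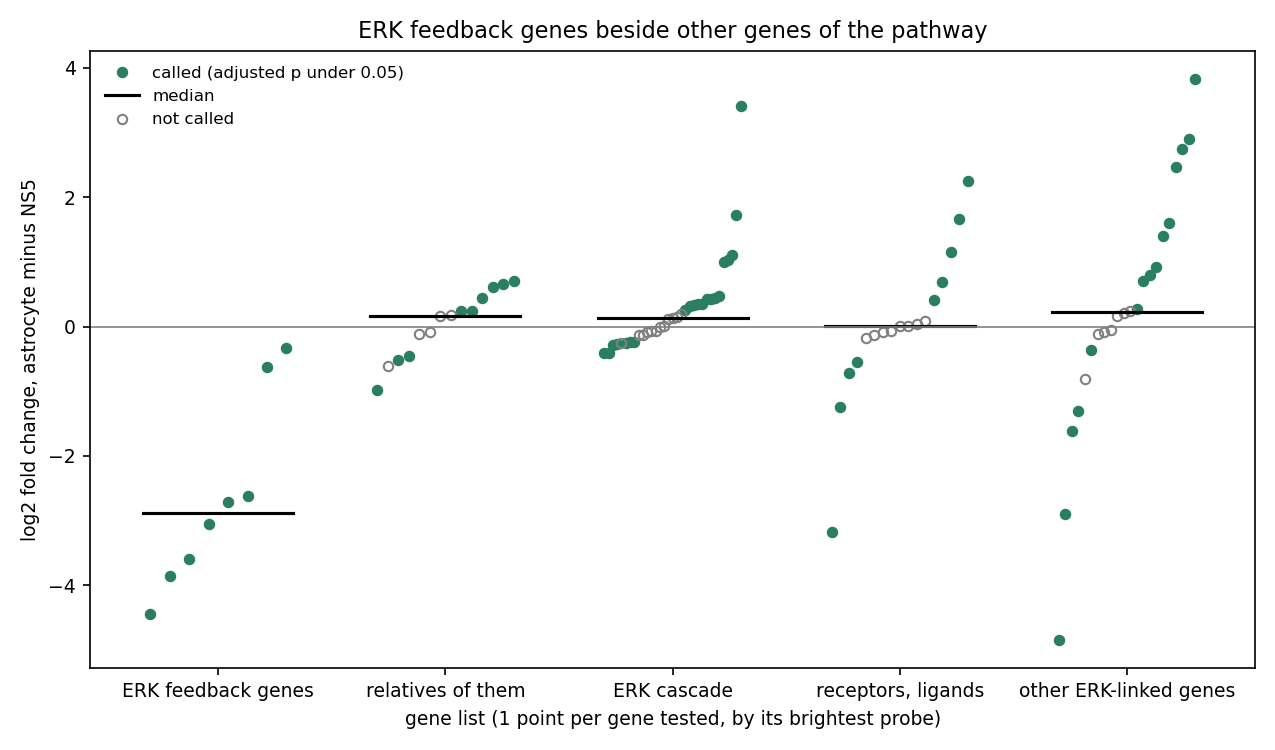
Log2 fold change (astrocyte minus NS5) of each gene tested by its brightest probe, in the 8 ERK feedback genes and in 4 other lists of the pathway, with filled points for genes called and black bars for list medians. The median is -2.88 for the feedback genes and 0.17, 0.14, 0.01 and 0.23 for the other lists from left to right.

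Of 26 receptors and ligands, 17 were tested, with 4 lower, 5 higher and a median log2 fold change of 0.01. These counts lie near the shares over all genes, 30.4% lower and 30.1% higher. Areg, an EGF-family ligand, gave 2236, 1654, 1240 and 1597 in NS5 cells and 322, 49.5, 81.6 and 23.6 in astrocytes, a log2 fold change of -3.18 ± 0.30 (SE, limma adjusted p = 1.14e-06). Kit and Fgf1 had -1.24 ± 0.10 and -0.72 ± 0.15, the latter with -1.16 by its other probe. Hbegf, another EGF-family ligand, was not above background in NS5 cells and was at least 3.96-fold higher in astrocytes (limma adjusted p = 3.60e-09). The receptor genes Ntrk2 and Fgfr3 had 1.66 ± 0.09 and 1.16 ± 0.08, and the dimmer Fgfr3 probe was at least 1.06-fold higher. Egfr, the EGF receptor, gave 2111, 2183, 2082 and 1971 in NS5 cells and 3132, 1613, 1648 and 1358 in astrocytes. It was not called (-0.17 ± 0.19, limma adjusted p = 0.474, 95% interval -0.59 to 0.24), and astrocyte array 1 again stood above the other arrays of its group. Without that array Egfr was called lower, at -0.42 ± 0.09 (limma adjusted p = 8.66e-04). The brighter Fgfr1 probe never exceeded the background limit, and the other was above it on 1 astrocyte array.

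Other genes that ERK induces or that act back on it were also called in both directions. Of 32, 22 were tested, with 5 lower, 10 higher and a list median of 0.23 (log2), beside 30.4% lower and 30.1% higher of all genes. The cyclin D1 gene Ccnd1, Trib2 (a pseudokinase) and Cdc25a (a cell cycle phosphatase) had the largest falls, at -4.84 ± 0.19, -2.90 ± 0.14 and -1.62 ± 0.11 (SE). Fos, Fosl2 and Junb, members of the AP-1 transcription factor, had the largest rises, at 3.83 ± 0.68, 2.90 ± 0.27 and 2.75 ± 0.22. The probes of Fosl2 disagreed, with -0.04 by another probe (limma adjusted p = 0.699). Lrig1, Lrig3 and Errfi1, genes linked to EGF receptor signalling and named here after their values were seen, were called higher. Lrig1 and Lrig3, membrane proteins of which LRIG1 promotes receptor degradation, had 1.40 ± 0.10 and 1.59 ± 0.15. Errfi1, which blocks the receptor's kinase domain, had 0.70 ± 0.09. Cic, the gene of the repressor Capicua, gave 393, 340, 368 and 378 in NS5 cells and 830, 718, 874 and 724 in astrocytes, a log2 fold change of 0.92 ± 0.08 (limma adjusted p = 5.91e-07), and was also named after its values were seen.

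Within each group, Dusp6 and Spry4 varied from array to array together with some immediate-early genes, a pattern found after the values were seen. In NS5 cells the Dusp6 signals ranked from array 3 over arrays 4 and 1 down to array 2. Fos, at 76.9, 45.2, 800 and 296 on NS5 arrays 1 to 4, had the same order. In astrocytes Fos gave 3739, 5833, 14089 and 1045, so that array 3 was the highest and array 4 the lowest, as for Dusp6. Ier3, an early growth factor response gene, had the same highest and lowest arrays as Dusp6 in both groups, with 1397, 1247, 2098 and 1852 in NS5 cells and 11446, 8459, 14158 and 5627 in astrocytes. With each group's mean removed, the log2 values of Dusp6 and Fos had a Pearson r of 0.955 over the 8 arrays, a value reached by 0.0543% of all genes tested. Spry4 had 0.948 with Jun, reached by 0.109% of genes, 0.797 with Dusp6 and 0.761 with Fos, reached by 3.55% of genes. Among the genes compared, only Dusp2 was higher with Dusp6, at 0.957. The pairs with Fos for Dusp6 and Jun for Spry4 were picked for their high r, so their percentages are not chance rates. Other early genes followed less closely, with r down to 0.389 for Spry4 with Egr2, reached by 21.3% of genes, and to 0.412 for Dusp6 with Fosl2, reached by 16.6%. These are descriptions over 8 arrays that share their normalization. Between the groups the same genes parted, Fos, Ier3 and Jun being higher and Dusp6 and Spry4 lower in astrocytes.

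**Figure D4:**
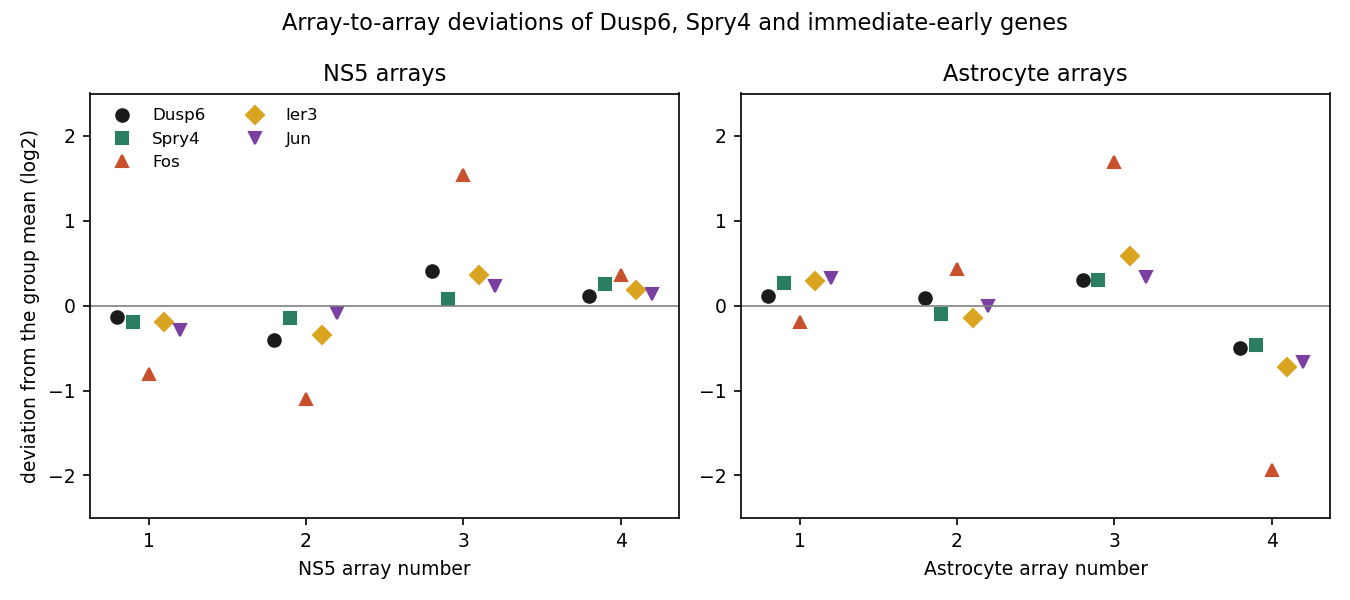
Deviation of each array from its group mean, in log2(signal + 99.01), for Dusp6, Spry4, Fos, Ier3 and Jun, with NS5 arrays on the left and astrocyte arrays on the right. Array 3 lies above 0 for each of the 5 genes in both groups, and astrocyte array 4 below 0, with Fos swinging widest.

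Etv5 varied differently. Its group-centred values had an r of 0.037 with Dusp6, against 0.807 with Spred1 and 0.889 with Fosl2, the last reached by 1.26% of genes. Astrocyte array 1 was the highest of its group for Etv5, Spred1, Fosl2, Areg and Egfr. Its group-centred values for Etv5 and Spred1, 0.83 and 0.46, lay further from 0 than those of any other array. The r of Etv5 with Spred1 and Fosl2 therefore leans on this 1 array and was not recomputed without it. Over the pairs of the 8 genes, r of the group-centred values ran from -0.653 to 0.807, whereas r of the values as measured, which hold the difference between the groups, ran from 0.817 to 0.996.

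By that second measure, over the 8 arrays, the genes most like each member were found among all genes tested. For Etv5 they were Nup62, Pde10a and Ror2 (r = 0.998 each). For Etv4 they were Nup107, Fam111a and Anln (r = 0.999 each), and for Etv1 Chst7, Mogs and Nop10 (r from 0.998 to 0.999). For Spry4 they were Slc20a1, Mcm4 and Slc39a10 (r = 0.998 each), for Dusp4 Brip1, Dhcr7 and Cyp51 (r = 0.998 each), and for Dusp6 Tarbp2, Eif3l and Phf6 (r from 0.997 to 0.999). For Spred1 they were Cdyl, Hnrnpdl and Suv39h1 (r from 0.973 to 0.982), and for Spred2 Mtpap, Zdhhc20 and Sypl (r from 0.971 to 0.979). Each of these genes was lower in astrocytes, and r near 1 over 2 groups of arrays reflects the difference between the groups.

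Markers of division and of other cell types were read on the same arrays. The 4 proliferation markers on the array fell, their summed signal going from between 21346 and 24087 in NS5 cells to between 179 and 215 in astrocytes. Oligodendrocyte lineage markers, 2 lower and 3 higher of 6 tested, summed to between 37345 and 53061 in NS5 cells and between 14509 and 18108 in astrocytes, and Sox10 was not above background on any array. Neural stem cell markers, 2 lower and 3 higher of 6 tested, summed to between 20194 and 22961 in NS5 cells and between 43511 and 44534 in astrocytes, and Pax6 was not above background on any array. Neuron markers, 2 lower and 1 higher of 5 tested, summed to between 628 and 798 in NS5 cells and between 454 and 753 in astrocytes, and Dcx and Stmn2 were not above background on any array. None of the 4 microglia markers on the array was above background, nor were 4 of 6 fibroblast and pericyte markers, the collagen genes among them. The part of cell division and cell identity in the fall of the feedback genes was not tested.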

How the data were processed

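RNA from 4 NS5 cultures and 4 cultures of derived astrocytes, biological replicates per the labels, was measured on 1-colour Illumina bead arrays. The deposited table holds linear intensities with values below 0, so a background had been subtracted, and the scanner software is not given in the sources used here. The value table deposited by the authors holds log2 values that equal the intensities with a floor of 10, quantile normalized, within 4.99e-09, and served as an alternative. Each intensity was raised by 99.01, log2 transformed and quantile normalized. Probes with a mean above the median of all probes (12306) were compared between the groups by lmFit and eBayes of limma (version 3.58.1, run in R 4.3.3), with Benjamini-Hochberg adjustment over these probes. A gene was counted by its brightest probe. A bound ("at least") replaces a fold where no array of a group exceeded its background limit. Bounds were taken on the log2(signal + 99.01) scale, where the added constant makes them smaller than a ratio of signals. Symbols came from the platform annotation and, for 687 probes, from RefSeq accessions. The table has no detection p, so background limits came from the negative intensities. Named beside the members were, in each list, up to 3 called genes with the largest rise and fall, and the 3 genes most correlated with each member. Egfr, Fgfr1, Etv3, Etv6, Spred3, Ier3, Jun, Lrig1, Lrig3, Errfi1 and Cic fall outside this rule and were chosen after their values were seen. Some genes that the rule names are not reported here. The members and lists were chosen with earlier results of these data known. The p-values measure the spread between cultures of 1 cell line.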

Additional observations from a re-analysis of the deposited data

Results flagged for a closer look

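Among the 92 combinations of a named probe and a group examined, 9 had 1 array far from the other 3 by Dixon's test, which chance gives in about 1 of 20 groups. On NS5 array 1, Spred1 (149.777 against 187 to 193) and Etv4 (855.622 against 1080 to 1122) were low, as was Ntrk2 (17.2727 against 41.8 to 44.7). On NS5 array 3, the dim probes of Spry2 (3.87247 against -24.0 to -23.0) and of Dusp4 (24.2145 against -0.358 to 1.74) were high, both below background. Among astrocyte arrays, Il17rd (166.143 against 101 to 110) and Etv6 (85.5653 against 46.7 to 48.2) were high on array 1, Dusp14 high on array 2 (154.064 against 102 to 105) and Pea15a low on array 3 (39016.9 against 43139). For the genes among these that were tested, leaving out the array did not change the call.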

How the results depend on the processing

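Over the alternatives tried, the 8 member genes called lower stayed 8 and the number called higher stayed 0, and no fold change recomputed, of the members or of the named genes, reversed or lost its call. Of genes not called, Egfr passed without astrocyte array 1 (-0.42), Etv3 without astrocyte array 4 (0.24) and Spred3 in the authors' value table (-0.34). The dimmer Spred2 probe stayed uncalled. The number of probes at least 2-fold lower was 1036, and 1705 with intensities under 10 set to 10. The authors' value table holds practically the same values as that setting and is no separate check. With median centring, 3 relatives and 9 cascade genes were called higher, against 6 and 14. The cause was not tested. With each array left out in turn, the log2 fold change of Etv5 ran from -4.71 to -4.30, of Spry4 from -3.70 to -3.46, of Dusp6 from -3.98 to -3.71 and of Spred1 from -0.78 to -0.54. Whether replicate numbers pair the arrays was not clear. Deviations of same-numbered arrays correlated at -0.057 to 0.155. NS5 arrays 3 and 4 correlated best with their own numbers, and NS5 arrays 1 and 2 did not. With the replicate block, 3722 probes were called lower and 3448 higher, against 3770 and 3465, and 8 members lower. The dim probes limit what can be said of Spry2, Spred2 and the astrocyte level of Dusp4.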
